A study of Mus musculus with 6 samples.

Results

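FAH gene-corrected iPSC line 7.1 was set against its sister subclone, gene-corrected line 7.2, and against FAH iPSC line 7, the line from which both were derived, over all genes measured. These are 3 of the 6 Illumina mouse-8 V2 arrays of the series, 1 array per culture, and all genes above background on at least 1 of the 3 were used, 9461 of 16593. Lines 7.1 and 7.2 are induced pluripotent stem (iPS) cells of the gene-corrected FAH(-/-) genotype, and line 7 is uncorrected FAH(-/-). All 3 share the FAH(-/-) background of the fetal fibroblasts and carry the retroviral vectors for Oct4, Sox2, Klf4 and c-Myc with which these were reprogrammed. Lines 7.1 and 7.2 also carry a lentiviral vector that expresses FAH together with EGFP from the ubiquitous SFFV promoter, and were subcloned from transduced line 7 by picking EGFP-positive colonies. The other arrays are of FAH iPSC line 4, OG2 ES cells (embryonic stem cells with an Oct4-GFP reporter) and the FAH(-/-) mouse embryonic fibroblasts (MEFs). Each line is 1 clone grown on MEF feeder cells and was arrayed once, so a difference between lines cannot be told apart from one between cultures, RNA preparations or arrays, and no test was possible. The number of vector insertions cannot be told apart from these either.

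Subclones of one iPS cell line share the reprogramming event, yet each passes through a single cell and is expanded in its own dishes. Mouse pluripotent cultures hold more than one cell state, among them a rare state with genes of the early cleavage embryo, such as the Zscan4 cluster. Cultures on feeder cells also hold RNA of those fibroblasts where they are harvested with the colonies. Array values are given as normalized log2 signal, on which a difference of 1 is 2-fold. An offset added before the logarithm makes folds of dim genes smaller than they were.

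Of the 9461 genes, 80 were at least 1.5-fold lower in line 7.1 than in line 7 (0.846%) and 39 were at least 1.5-fold higher (0.412%). Against line 7.2, 50 genes were at least 1.5-fold lower in line 7.1 (0.528%) and 23 were higher (0.243%). Both differences use the same line 7.1 array, so any error of that array enters both. In both comparisons together, 30 genes were lower by at least 1.5-fold (0.317%) and 11 were higher (0.116%), or 0.433% in either direction, and at 2-fold the counts were 5 (0.0528%) and 0. At 2-fold from a single line, 9 genes were lower than in line 7 (0.0951%) and 1 was higher (0.0106%), and 6 were lower than in line 7.2 (0.0634%) and 1 was higher (0.0106%). From the mean of lines 7.2 and 7, 44 genes were at least 1.5-fold lower (0.465%) and 17 higher (0.18%), or 0.645% in either direction, and at 2-fold 8 were lower (0.0846%) and 2 higher (0.0211%). With signals not above background taken at their bounds, 28 of the 30 and 9 of the 11 were past 1.5-fold and 4 of the 5 past 2-fold, without Lcn2, Serpina3n, Lexm and Olfr525. By the same count as before, without bounds, line 7.2 was apart from both other lines at 2 higher and 1 lower genes, and line 7 at 5 higher and 2 lower genes. Line 7.2 against line 7, a pair without line 7.1, had 14 genes at least 1.5-fold higher (0.148%) and 26 lower (0.275%), and at 2-fold 1 lower (0.0106%) and 0 higher.

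The split into higher and lower genes against line 7 depended on how the arrays were scaled. When the arrays were only scaled to a common median, without quantile normalization, the counts at 1.5-fold against line 7 were 132 higher and 39 lower, and the median of all genes moved to 0.118. Against line 7.2 this median was -0.02, and the counts were 19 higher and 55 lower. In both comparisons together they were 10 higher and 26 lower. Gene lists are therefore read below against the median of all genes, which was 0.00 in both comparisons after quantile normalization.

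**Figure D1:**
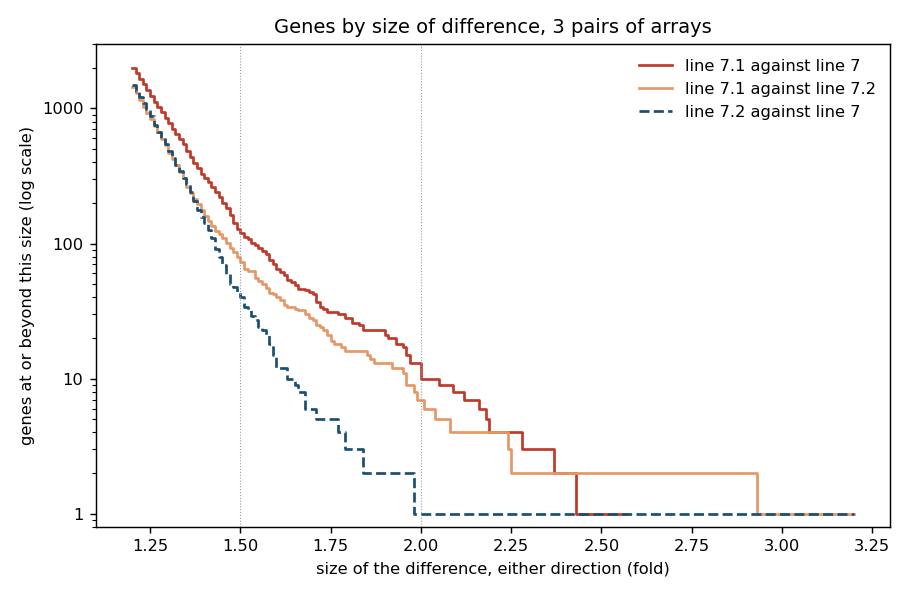
Number of genes (vertical axis, log scale) whose difference reached a given size in either direction (horizontal axis, fold), for line 7.1 against line 7, line 7.1 against line 7.2, and line 7.2 against line 7, 1 array per line. At 1.5-fold the counts were 119 (1.26%), 73 (0.772%) and 40 genes (0.423%), and at 2-fold 10 (0.106%), 7 (0.074%) and 1 (0.0106%).

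Most genes lay close together on all 3 arrays. The median size of the difference was 0.14 for line 7.1 against line 7, 0.12 for line 7.1 against line 7.2 and 0.13 for line 7.2 against line 7. The pairs parted in the tail. The 99th percentile of size was 0.63 and 0.55 for the pairs with line 7.1, against 0.51 for line 7.2 against line 7. Among the 3885 genes with a mean log2 signal of at least 8, the number past 1.5-fold was 49 and 30 for the pairs with line 7.1 and 5 for the pair without it.

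**Figure D2:**
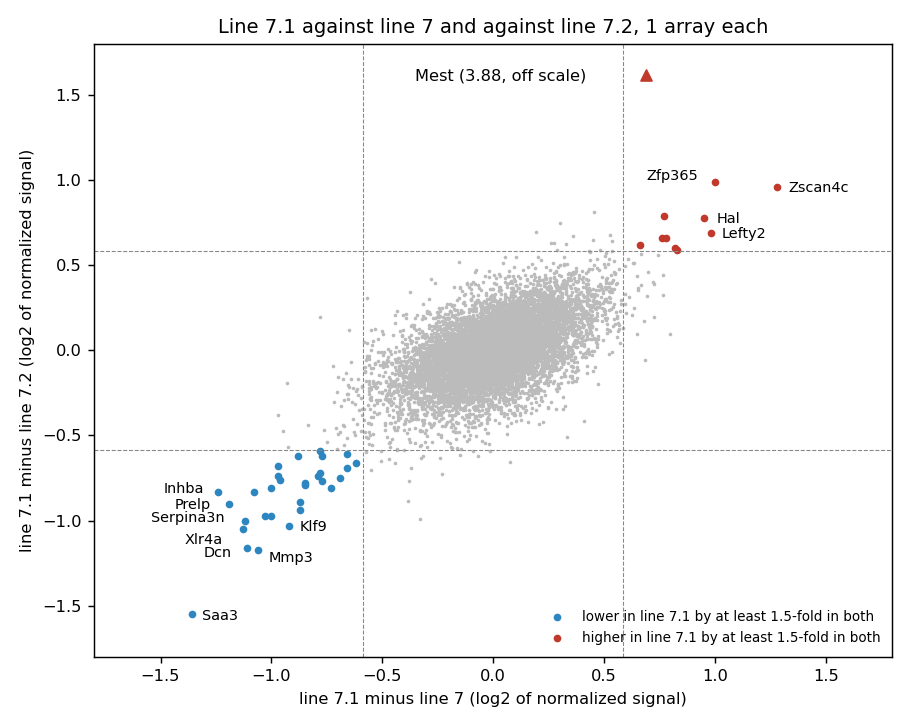
Each gene's difference of line 7.1 minus line 7 (horizontal axis, log2) and of line 7.1 minus line 7.2 (vertical axis, log2), with dashed lines at 1.5-fold. The 30 genes lower in both and the 11 higher in both are coloured, Saa3 lies lowest at -1.36 and -1.55, and the tilt of the cloud is in part built in because both axes contain the line 7.1 array.

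Fah, which encodes the last enzyme of tyrosine breakdown and is the gene of which an intact copy was added, had a log2 signal of 7.12 in line 7.1, 7.00 in line 7.2 and 7.25 in line 7. It was 7.12 in line 4 and 8.91 in OG2 ES cells, and 6.30, not above background, in the MEFs. The corrected lines were thus not set apart from line 7 by this probe, and its place in the transcript is not given, so whether it reads the vector's FAH or the disrupted exons is unknown and it is no check of the labels.

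All 9 pluripotency markers were above background in line 7.1, line 7.2 and line 7. Oct4 (Pou5f1) had a log2 signal of 12.01 in line 7.1, 12.01 in line 7.2 and 12.19 in line 7. Nanog had 11.68 in line 7.1, 11.47 in line 7.2 and 11.42 in line 7. Sox2 had 9.16 in line 7.1, 9.04 in line 7.2 and 9.12 in line 7. These 3 core factors of the pluripotent state differed by less than 1.5-fold between line 7.1 and each other line. Of 24 tested genes of the pluripotency network, 17 were higher in line 7.1 than in line 7 and 17 than in line 7.2, with medians of 0.05 and 0.09, where 50.6% and 50.4% of all genes were higher. Klf4, one of the reprogramming factors, was 10.20 in line 7.1, 9.95 in line 7.2 and 9.57 in line 7 by its brightest probe. Its 2 other probes were -0.09 and -0.18 from line 7 and -0.58 and -0.66 from line 7.2, so the higher value rests on 1 of 3 probes.

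Saa3 was the gene with the lowest value relative to both lines. It encodes serum amyloid A3, an acute phase protein made outside the liver by fibroblasts, macrophages and fat cells. Its log2 signal was 7.27 in line 7.1, 8.82 in line 7.2 and 8.62 in line 7, above background on all arrays. It was 7.26 in line 4, 7.54 in OG2 ES cells and 8.52 in the MEFs. Lines 7.2 and 7 thus lay near the MEFs, and line 7.1 near line 4. The signal was 2.93-fold lower in line 7.1 than in line 7.2 and 2.56-fold lower than in line 7. Over the alternative ways of processing, the log2 difference ran between -1.99 and -1.37 against line 7.2 and between -1.79 and -1.19 against line 7.

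The other members of the acute phase and inflammation list lay on the same side. This list, like all lists here, was chosen with earlier results of these data known. All 13 tested of 24 listed genes were lower in line 7.1 than in line 7, between -1.36 and -0.04, and all 13 were lower than in line 7.2, between -1.55 and -0.04, where 49.2% and 49.5% of all genes were lower. Il6 was not above background in line 7.1 or line 7.2, so its values there have no order. Serpina3n and Lcn2, like Il6, were not above background in line 7.1. They were tested only because another line was above it, so the filter favoured their direction and they add little to the count. The medians were -0.41 and -0.36, and in line 7.2 minus line 7 the list's median was -0.04. With median scaling 10 of 13 were lower than in line 7, where 28.5% of all genes were, and 13 of 13 lower than in line 7.2. Another 6 measured members, among them Ptgs2 and Tnfaip3, were not above background in any of the 3 lines.

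Secreted proteins of this list came first. Serpina3n, a serine protease inhibitor of the acute phase, was 5.86 in line 7.1, which was not above background, 6.87 in line 7.2 and 6.99 in line 7. It was thus at least 1.46-fold lower than in line 7.2 and at least 1.58-fold lower than in line 7. Lcn2, lipocalin 2, which binds bacterial iron carriers, was 5.96 in line 7.1, not above background, and 6.73 in both line 7.2 and line 7, or at least 1.33-fold lower than in each. In both genes line 7.1 lay at background and lines 7.2 and 7 just above it. Line 7.1 was not alone in this. Lcn2 was not above background in line 4 (6.17) or OG2 ES cells (5.73). Serpina3n was 6.39 in line 4 and 5.90, not above background, in OG2 ES cells.

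The chemokines of the list, which attract white blood cells, had smaller differences than Saa3. Cxcl1, a neutrophil attractant, was 8.35 in line 7.1, 8.85 in line 7.2 and 8.90 in line 7. Ccl7, a monocyte attractant, was 8.38 in line 7.1, 8.76 in line 7.2 and 8.80 in line 7. Cxcl5, Cxcl12 and Ccl2 differed from line 7 by between -0.56 and -0.34. Ccl11 (eotaxin), which attracts eosinophils and stood outside the list, was 7.25 in line 7.1, 8.22 in line 7.2 and 8.28 in line 7. In line 4 it was 6.95 and in OG2 ES cells 7.93. A second, dimmer Ccl11 probe also had its lowest value in line 7.1 (6.36, against 6.56 in line 7.2 and 6.84 in line 7). Among intracellular regulators, Cebpb, a transcription factor of acute phase genes, differed by -0.04 from line 7 and -0.23 from line 7.2. Nfkbia, the inhibitor of NF-kappaB, differed by -0.10 and -0.04, and Socs3, a STAT3-induced inhibitor of cytokine signalling, by -0.10 and -0.07. Stat3 itself was 8.78 in line 7.1, 9.21 in line 7.2 and 9.23 in line 7. Its other probes differed by -0.37 and -0.15 from line 7 and by -0.43 and -0.33 from line 7.2. Of 13 tested LIF and STAT3 targets, 7 were lower than in line 7 and 6 lower than in line 7.2. The shares of all genes lower were 49.2% and 49.5%.

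**Figure D3:**
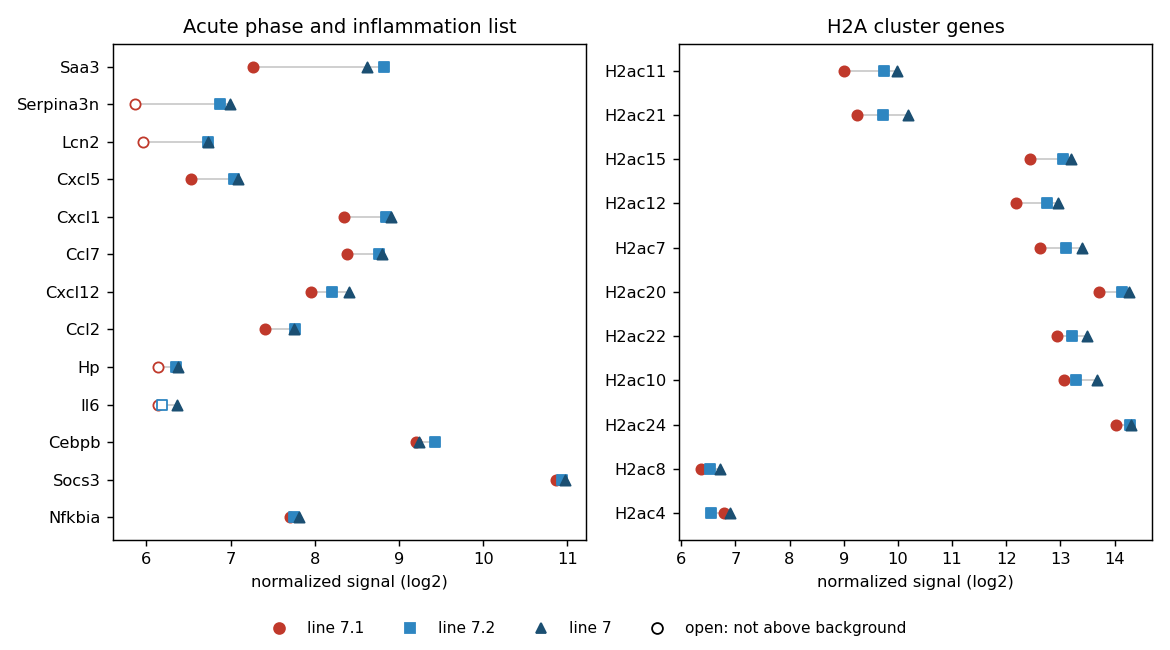
Normalized log2 signal of the 13 tested genes of the acute phase and inflammation list (left) and of 11 H2A cluster genes (right) in lines 7.1, 7.2 and 7, 1 array each, with open symbols where a signal was not above background. Line 7.1 has the lowest value of the 3 lines for all 13 genes at left (for Il6 it lies with line 7.2 at background), and for 10 of 11 at right, where line 7.2 is lowest for H2ac4.

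Among the 30 lower genes were 3 matrix metalloproteinases and the matrix protein genes Dcn, Mgp and Prelp, a grouping made after their values were seen. Mmp3 (stromelysin 1), which cuts proteoglycans and other matrix proteins, had a log2 signal of 9.09 in line 7.1, 10.26 in line 7.2 and 10.15 in line 7. It was 9.04 in line 4, 9.37 in OG2 ES cells and 8.97 in the MEFs, so lines 7.2 and 7 stood above the MEFs as well. The 2 other Mmp3 probes gave differences of -0.80 and -0.81 from line 7 and -1.02 and -1.17 from line 7.2. Mmp13, a collagenase, was 7.09 in line 7.1, 8.03 in line 7.2 and 7.96 in line 7, and 7.32 in line 4 and 7.27 in OG2 ES cells. Mmp14, a membrane-bound metalloproteinase, was 8.60 in line 7.1, 9.40 in line 7.2 and 9.32 in line 7. Mmp14 and the family itself were chosen after their values were seen. Of 12 tested metalloproteinase genes these 3 were 1.5-fold lower in both comparisons (0.317% of all genes were), 6 were lower by any size in each comparison (49.2% and 49.5% of all genes were), and the medians were 0.00 and -0.01. Mmp2, a gelatinase with 12.47 in the MEFs, differed by -0.05 from line 7 and -0.04 from line 7.2.

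Dcn (decorin), a small collagen-binding proteoglycan, was 8.10 in line 7.1, 9.26 in line 7.2 and 9.21 in line 7, and 12.60 in the MEFs. Its second probe gave -1.22 against line 7 and -1.11 against line 7.2. Mgp (matrix Gla protein), an inhibitor of calcification, was 7.27 in line 7.1, 8.24 in line 7.2 and 8.26 in line 7, and 12.73 in the MEFs. Prelp, another matrix proteoglycan, was 6.03 in line 7.1, which was not above background, 6.92 in line 7.2 and 7.21 in line 7, which makes line 7.1 at least 1.52-fold lower than line 7.2 and at least 1.85-fold lower than line 7. These 3 matrix genes had their highest signal in the MEFs and their lowest, among the 3 lines, in line 7.1. In line 4 and OG2 ES cells Dcn was 8.61 and 8.29, and Mgp was 7.51 and 7.18. Prelp was 6.47 in line 4 and 6.11, not above background, in OG2 ES cells.

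Fibroblast genes as a whole were less far apart. Of 37 tested fibroblast and feeder genes, 25 were lower in line 7.1 than in line 7 (median -0.16) and 26 lower than in line 7.2 (median -0.09). The shares of all genes lower were 49.2% and 49.5%, which serve also for the MEF-bright sets below. With median scaling 19 were lower than in line 7, where 28.5% of all genes were, with a median 0.14 below that of all genes. Col3a1, a fibrillar collagen, was 6.36 in line 7.1, 6.87 in line 7.2 and 7.02 in line 7. Col1a1, a chain of type I collagen, was 7.22 in line 7.1, 6.84 in line 7.2 and 6.96 in line 7. Acta2, smooth muscle actin, was 10.15 in line 7.1, 9.56 in line 7.2 and 9.67 in line 7. The last 2 were thus higher in line 7.1, while Thy1, a surface marker of fibroblasts, lay between 9.10 and 9.17 on all 3 arrays. Among 183 tested genes at least 8-fold brighter on the MEF than on the OG2 ES array, 128 were lower in line 7.1 than in line 7 and 120 lower than in line 7.2, with medians of -0.13 and -0.09. Among the 86 at least 16-fold brighter the counts were 67 and 60 and the medians -0.19 and -0.10, and among the 16 at least 32-fold brighter they were 13 and 12, with medians of -0.26 and -0.17.

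Defining fibroblast markers were summed on each array. The summed linear signal of 10 such markers was 1550 in line 7.1, with 6 above background, 1970 in line 7.2, with 7, and 1920 in line 7, with 6. It was between 1530 and 1710 in OG2 ES cells and line 4, and 35800 in the MEFs. Counting only signal above each array's lowest value above background, the sum was 793 in line 7.1, 1200 in line 7.2 and 1160 in line 7, and without Dcn, itself among the lower genes, 598 in line 7.1, 664 in line 7.2 and 651 in line 7. Col1a2, Pdgfrb and Postn were not above background in any of the 3 lines. Of the 30 lower genes, 9 were at least 2-fold brighter on the MEF than on the OG2 ES array (30%, against 13.7% of all genes tested) and 3 at least 8-fold (10%, against 1.93%). Within the acute phase list, the 6 genes with less than a 2-fold excess in MEFs were lower in line 7.1 as well, with medians of -0.22 and -0.14, against -0.47 and -0.37 for the 7 with at least that excess. The MEF array is of the FAH(-/-) starting fibroblasts, and the series has no array of the feeder layer, whose levels of these genes may differ. The part of feeder RNA in these differences was not tested, and fewer cells of a type and less RNA per cell cannot be told apart in bulk RNA.

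No interferon response gene was 1.5-fold apart from both lines, where only 0.433% of all genes were. Of 27 tested genes, 19 were lower in line 7.1 than in line 7 (median -0.15) and 21 lower than in line 7.2 (median -0.10). Of all genes, 49.2% and 49.5% were lower. The 15 with at least a 2-fold excess on the MEF over the OG2 ES array had medians of -0.21 and -0.13, and the other 12 of -0.08 and -0.08, and the part of feeder RNA was not tested here either. Bst2 (tetherin), which holds virus particles at the cell surface, was 8.13 in line 7.1, 8.22 in line 7.2 and 8.85 in line 7, and 10.09 in the MEFs. Isg15, a ubiquitin-like protein, was 7.01 in line 7.1, 7.27 in line 7.2 and 7.49 in line 7, and 11.13 in the MEFs. Ifitm1, a membrane protein that restricts virus entry, was 8.63 in line 7.1, 8.93 in line 7.2 and 9.14 in line 7, and 7.38 in the MEFs. In all 3 the lowest value was that of line 7.1 and the highest that of line 7. With median scaling 15 of 27 were lower than in line 7 and 22 of 27 lower than in line 7.2, where 28.5% and 54.4% of all genes were.

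Promoter sequences of the lower genes were read from RefSeq (GRCm38.p6), over 250 bases before to 50 after the annotated start, and each motif was searched on both strands. The AP-1 motif TGANTCA was present in 6 of the 25 lower genes with a promoter sequence (24.0%), Il11, Klf9, Mmp13, Mmp3, Prl2c3 and Trim2, against 8.97% of all 27025 promoters and 6.64% of those of the genes tested. The C/EBP motif TTGCNNAA was present in 6 of 25 (24.0%), Gpd2, Inhba, Lcn2, Mmp3, Saa3 and Trim2, against 12.2% of all promoters. These are matches of letters, given as a description, and both motifs were chosen after values were seen. Use of these motifs by a factor was not tested. The 250 bases before the start of Saa3, Lcn2, Mmp3 and Mmp13 are shown because they belong to the acute phase and matrix-degrading genes described above, with the match of the C/EBP motif (Saa3, Lcn2) or the AP-1 motif (Mmp3, Mmp13) in capitals.
Saa3, minus strand, chr7:46715677-46715926: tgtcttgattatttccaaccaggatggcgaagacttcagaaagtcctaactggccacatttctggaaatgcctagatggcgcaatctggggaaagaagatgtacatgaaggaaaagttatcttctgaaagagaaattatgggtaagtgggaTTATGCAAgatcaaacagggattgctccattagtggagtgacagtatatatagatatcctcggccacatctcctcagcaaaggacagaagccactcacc
Lcn2, minus strand, chr2:32387740-32387989: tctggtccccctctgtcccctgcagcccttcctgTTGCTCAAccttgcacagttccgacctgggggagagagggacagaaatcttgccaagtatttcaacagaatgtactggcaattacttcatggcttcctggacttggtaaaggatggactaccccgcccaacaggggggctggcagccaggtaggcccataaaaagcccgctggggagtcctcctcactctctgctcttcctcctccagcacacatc
Mmp3, plus strand, chr9:7445572-7445821: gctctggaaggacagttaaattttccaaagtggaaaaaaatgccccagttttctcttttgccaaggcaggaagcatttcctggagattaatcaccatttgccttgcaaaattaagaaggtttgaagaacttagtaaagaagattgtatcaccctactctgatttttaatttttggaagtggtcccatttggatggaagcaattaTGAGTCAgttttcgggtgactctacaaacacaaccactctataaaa
Mmp13, plus strand, chr9:7272264-7272513: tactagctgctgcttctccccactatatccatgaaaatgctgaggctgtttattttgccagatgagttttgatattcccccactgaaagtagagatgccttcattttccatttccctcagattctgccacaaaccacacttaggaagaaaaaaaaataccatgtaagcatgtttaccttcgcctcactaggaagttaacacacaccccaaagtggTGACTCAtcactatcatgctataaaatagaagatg
The matches lie 99 and 216 bases before the start in Saa3 and Lcn2, and 46 and 35 bases before it in Mmp3 and Mmp13. In Saa3 the match reads on the opposite strand.

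Signalling molecules of the TGF-beta family were among the genes apart in either direction. Lefty2 and Lefty1 are secreted inhibitors of Nodal and also its targets. Lefty2 had a log2 signal of 11.23 in line 7.1, 10.53 in line 7.2 and 10.25 in line 7, and 9.47 in line 4 and 10.66 in OG2 ES cells. Lefty1 had 10.74 in line 7.1, 10.15 in line 7.2 and 9.90 in line 7, and 9.71 in line 4 and 9.81 in OG2 ES cells. For both genes line 7.1 had the highest signal of all 6 arrays. Nodal itself, the ligand, was 8.46 in line 7.1, 8.34 in line 7.2 and 8.22 in line 7, and its co-receptor Tdgf1 (Cripto) was 10.10 in line 7.1, 9.66 in line 7.2 and 10.03 in line 7. Inhba, the subunit of activin A, was 6.98 in line 7.1, 7.80 in line 7.2 and 8.22 in line 7. It was 8.68 in line 4, 7.17 in OG2 ES cells and 9.10 in the MEFs. Inhbb, the subunit of activin B, was 7.34 in line 7.1 and 6.92 in both line 7.2 and line 7. The transducers Smad2, Smad3 and Smad4 and the cofactor Foxh1 differed from both lines by at most 0.11 in size. Over the pathway, 9 of 16 tested genes were higher than in line 7 (median 0.05) and 7 of 16 higher than in line 7.2 (median -0.04), with 2 higher and 1 lower by at least 1.5-fold in both, where 0.116% and 0.317% of all genes were.

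Zscan4c, of the cluster whose genes are switched on in 2-cell-like cells of pluripotent cultures, was higher in line 7.1, at 8.34 against 7.38 in line 7.2 and 7.07 in line 7. It was 9.28 in line 4, 6.73 in OG2 ES cells and 5.87, not above background, in the MEFs. Line 7.1 thus lay between line 4 and its own relatives. Tcstv3, expressed in the 2-cell embryo, was 7.35 in line 7.1, 6.76 in line 7.2 and 6.53 in line 7, and 7.71 in line 4. Tcstv1, a relative, was 6.55 in line 7.1, against 6.21 in line 7.2 and 6.11 in line 7, which were not above background, and 7.04 in line 4. AF067061, which lies on chromosome 13 as do Tcstv1 and Tcstv3 and stood outside the list, was 6.94 in line 7.1, 6.32 in line 7.2 and 6.27, not above background, in line 7, and 7.17 in line 4. In all 4 genes line 4 had the highest signal of the iPS cell lines and line 7.1 the next. The fourth tested gene of the list, Eif1a, differed by -0.07 and 0.03, and 12 measured members, among them Zfp352 and Usp17la, were not above background in the 3 lines. Members of these families are near-identical in sequence, so a probe may read several of them.

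The other genes higher in line 7.1 came from several families. Zfp365, a zinc finger protein, was 7.78 in line 7.1, 6.80 in line 7.2 and 6.79 in line 7, or 1.98-fold and 1.99-fold higher, and 7.99 in line 4. Hal, which encodes histidine ammonia lyase, was 7.24 in line 7.1, 6.46 in line 7.2 and 6.29, not above background, in line 7. Rhox5, an X-linked homeobox gene, was 11.24 in line 7.1, 10.59 in line 7.2 and 10.47 in line 7, and 11.87 in OG2 ES cells. Lexm and the olfactory receptor gene Olfr525 were above background in line 7.1 and not in line 7.2 or line 7, with bounds of at least 1.23-fold to at least 1.41-fold. For Zfp365 and Rhox5 line 7.1 stood nearer to line 4 (11.06 for Rhox5) than to its relatives.

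Mest set line 7.2, not line 7.1, apart. This paternally expressed imprinted gene, whose product is a hydrolase-like protein of embryonic mesoderm, had a log2 signal of 9.95 in line 7.1, 6.07 in line 7.2, which was not above background, and 9.26 in line 7. It was 9.38 in line 4, 9.31 in OG2 ES cells and 11.36 in the MEFs. Line 7.1 was at least 12.4-fold higher than line 7.2 and 1.61-fold higher than line 7. The 2 other probes, also not above background in line 7.2, put line 7.1 at least 5.36-fold higher by one and at least 3.03-fold by the other, and differed by 0.39 and 0.46 from line 7, so the small excess over line 7 fell short of 1.5-fold on them. Of 23 tested imprinted genes, 14 were higher in line 7.1 than in line 7 (median 0.10) and 11 higher than in line 7.2 (median 0.00). The shares of all genes higher were 50.6% and 50.4%. Igf2, a fetal growth factor, was 9.58 in line 7.1, 9.99 in line 7.2 and 9.97 in line 7. Dlk1, at the Dlk1-Dio3 locus, was 6.54 in line 7.1, 6.61 in line 7.2 and 6.44 in line 7.

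**Figure D4:**
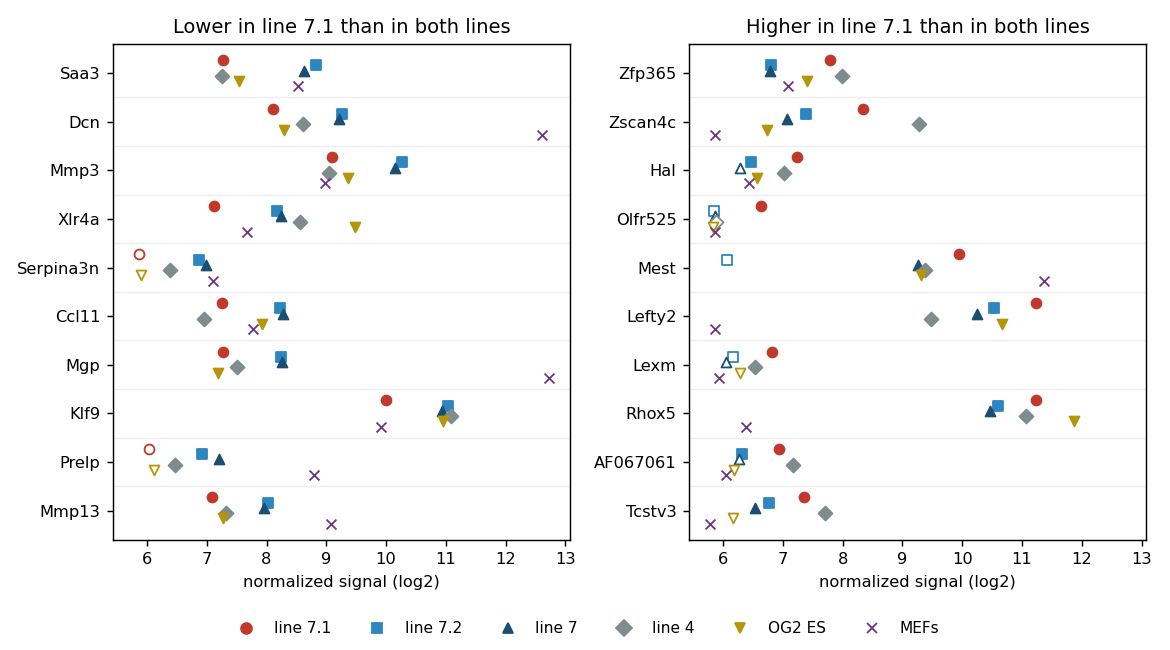
Normalized log2 signal on all 6 arrays of the 10 genes with the largest smaller difference in each direction, lower in line 7.1 (left) and higher in line 7.1 (right), with open symbols where a signal was not above background (the crosses of the MEFs do not show this). Line 7.1 lies apart from lines 7.2 and 7 because the genes were picked for that. At left lines 7.2 and 7 lie close together, and at right Mest is the exception, with line 7.2 at 6.07.

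Among transcription factors, Klf9, which glucocorticoids and thyroid hormone induce, was lower in line 7.1. It had a log2 signal of 10 in line 7.1, 11.03 in line 7.2 and 10.93 in line 7, and lay between 10.95 and 11.09 in line 4 and OG2 ES cells. Klf7 was 7.98 in line 7.1, 8.82 in line 7.2 and 9.07 in line 7. Klf13 was 8.25 in line 7.1, 9.14 in line 7.2 and 9.13 in line 7. For these 3 factors line 7.1 was the lowest of the iPS and ES arrays. Among all genes, 49.2% were lower than in line 7 and 49.5% lower than in line 7.2. Over the family, chosen after values were seen, 8 of 12 tested genes were lower in each comparison (medians -0.15 and -0.16), and the pluripotency members Klf2 and Klf5 differed by 0.40 and -0.05 from line 7 and by 0.06 and -0.17 from line 7.2. Otx2, a factor of the epiblast and forebrain, was 8.06 in line 7.1, 8.68 in line 7.2 and 8.94 in line 7. It was 8.22 in line 4 and 9.07 in OG2 ES cells. Fgf5, a marker of the primed epiblast, was 7.63 in line 7.1, 8.22 in line 7.2 and 8.13 in line 7. It was lower still in line 4 (6.69) and OG2 ES cells (7.01). Of the 13 tested genes of the primed epiblast and streak list, 8 were lower than in line 7 and 7 lower than in line 7.2, with medians of -0.08 and -0.08, and Lef1, a Wnt pathway factor, was on the other side, at 6.68 in line 7.1, 6.40 in line 7.2 and 6.24, not above background, in line 7. Xlr4a, of an X-linked multicopy family, was 7.12 in line 7.1, 8.17 in line 7.2 and 8.25 in line 7, and 9.48 in OG2 ES cells.

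Of the replication-dependent histone genes, those for H2A and H4 were mostly lower in line 7.1, while those for H2B and H3 lay on both sides. These genes, a set chosen after values were seen, encode the core histones made in S phase. All 11 tested H2A genes were lower than in line 7 (median -0.59) and 10 of 11 lower than in line 7.2 (median -0.43). The counts were the same with median scaling. With quantile normalization, 49.2% and 49.5% of all genes were lower. H2ac7 was 12.63 in line 7.1, 13.10 in line 7.2 and 13.39 in line 7. H2ac11 was 9.01 in line 7.1, 9.75 in line 7.2 and 9.98 in line 7. In line 4 and OG2 ES cells H2ac7 was 12.79 and 12.50, and H2ac11 was 9.29 and 9.68. Of 9 H3 genes, 6 were lower than in line 7 and 3 lower than in line 7.2, with medians of -0.02 and 0.09, and under median scaling the median against line 7 lay 0.04 above that of all genes. The 10 H2B genes had medians of -0.01 and -0.04 and the 10 H4 genes, of which 9 were lower in each comparison, of -0.21 and -0.07. With median scaling 7 of 10 H4 genes were lower than in line 7 and 9 of 10 lower than in line 7.2, where 28.5% and 54.4% of all genes were. The histone gene list, with 12 tested genes, had medians of 0.05 and 0.03. The H2A genes are near-identical in coding sequence and most probes may read several of them, so their number does not count independent genes.

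The rest of the 30 lower genes, named here as the remainder of that count and chosen after their values were seen, were Gpd2, Glg1, Prl2c3, Tcof1, Trim2, Il11, St6galnac2, Plpp3, Irs2, H2ac15, Pdpk1, Prmt5 and H2ac12. Of these, Il11 (interleukin 11) was 6.34 in line 7.1, 7.06 in line 7.2 and 7.12 in line 7, and Prmt5, an arginine methyltransferase, was 10.08 in line 7.1, 10.69 in line 7.2 and 10.74 in line 7. Line 4 lay below both lines 7.2 and 7 at 21 of the 30 lower genes (70%, against 38.0% of all genes). OG2 ES cells did at 25 (83.3%, against 42.3%). At the 11 higher genes, line 4 lay above both at 9 (81.8%, against 34.9%) and OG2 ES cells at 6 (54.5%, against 36.3%). The genes were picked by their difference from lines 7.2 and 7, which by itself can raise these shares. Of the 41 genes apart from both lines, 9 had another probe above background, and all 9 had the same direction on each such probe in both comparisons. This holds for direction, not size. The second Trim2 probe gave -0.15 against line 7 and -0.10 against line 7.2, and that of Gpd2 -0.27 and -0.24. With the mean of probes, 25 of the 30 lower genes stayed past 1.5-fold, without Prmt5, Gpd2, Plpp3, Trim2 and Pdpk1. Of the 11 higher genes 10 did, without Mest. At the 1.5-fold limit, H2ac12 (-0.59) was the last lower gene inside and Wwc2 (-0.58) the first outside, and Lefty1 (0.59) and Mdp1 (0.57) were their counterparts among higher genes. At 2-fold, Ccl11 (-0.97) was the first outside, and Serpina3n was inside by its measured signals but not by its bound.

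Stress and metabolic gene lists had small medians. Of 20 tested genes of the unfolded protein response and chaperones, 17 were higher than in line 7 (median 0.14) and 16 higher than in line 7.2 (median 0.09). Of all genes, 50.6% and 50.4% were higher. No gene of the list was 1.5-fold apart in either comparison, where 1.26% and 0.772% of all genes were. A list of 20 genes is too short to tell none from these shares. Hspa5 (BiP), the main chaperone of the endoplasmic reticulum, was 7.77 in line 7.1, 7.63 in line 7.2 and 7.49 in line 7. Of 22 tested amino acid stress and ATF4 targets, 10 were lower than in line 7 and 17 lower than in line 7.2. Their medians were 0.05 and -0.09, and 49.2% and 49.5% of all genes were lower. Cholesterol and fatty acid synthesis genes were higher than in line 7 at 15 of 18 (median 0.17) and higher than in line 7.2 at 11 of 18 (median 0.04). In the BMP pathway and Id genes, 8 of 11 were lower than in line 7 (median -0.16) and 9 of 11 lower than in line 7.2 (median -0.18), with Id1, a BMP target, at 8.47 in line 7.1, 8.72 in line 7.2 and 8.86 in line 7. Cell cycle genes (medians 0.00 and 0.00) and ribosomal protein genes (0.00 and 0.01) lay at the median of all genes.

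**Figure D5:**
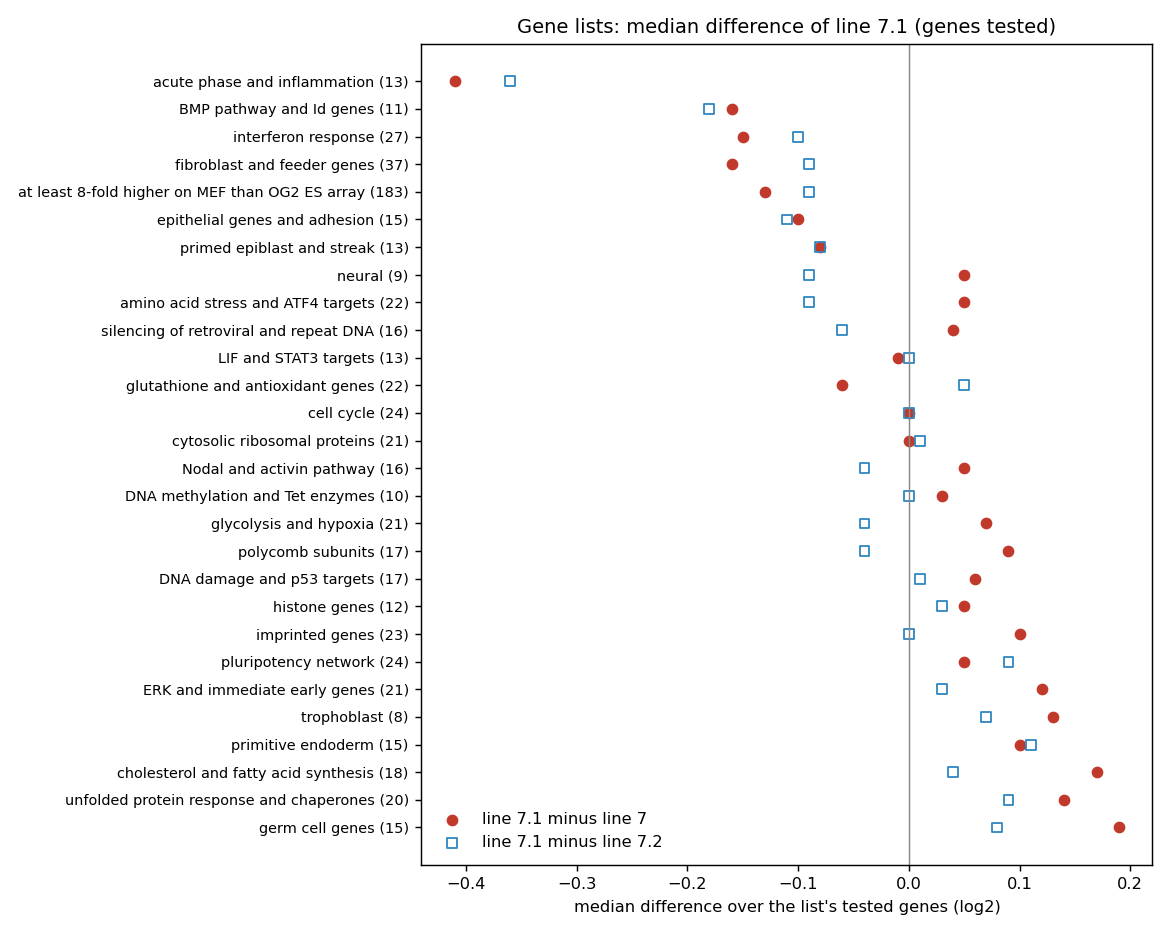
Median difference (horizontal axis, log2) of line 7.1 minus line 7 (filled circles) and of line 7.1 minus line 7.2 (open squares) over the tested genes of each list with at least 8 of them, 1 array per line, without the families chosen after values were seen and the 16-fold and 32-fold MEF sets, with the number tested in parentheses. Of those plotted, the acute phase and inflammation list lies farthest out, at -0.41 and -0.36, and all other medians lie between -0.18 and 0.19. The plotted lists too were chosen with earlier results of these data known.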

How the data were processed

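Total RNA (Trizol) was amplified and labelled with a TotalPrep kit. The authors' deposited files hold an exported BeadStudio intensity per probe, not yet background-subtracted, and a table of the authors' background-subtracted, cubic spline normalized intensity values on the linear scale. For the BeadStudio version, nothing is given in the sources used here.

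Here, limma 3.58.1 in R 4.3.3 applied normexp background correction (offset 50) and quantile normalization over all 6 arrays, and log2 values were used. A probe was above background where its signal exceeded that at which the authors' value is 0 by 2.326 noise SDs (the root mean square of the distances of dimmer probes from that point). This held for 12141 of 25697 probes in line 7.1, 12258 in line 7.2 and 11984 in line 7. The precision of every value is limited by there being 1 array per line. A single gene is named by 23978 probes, 1719 are unnamed, and 23962 could be matched to RefSeq (GRCm38.p6). The brightest probe stood for a gene. Where a line was not above background, the fold is a lower bound ("at least"), against the higher of its own signal and the lowest signal above background on that array. Differences of line 7.1 from line 7 and from line 7.2 were counted at 1.5-fold and 2-fold, with no p-value. The steps were tested on simulated arrays.

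The gene lists (32 lists, 697 symbols, 604 measured, 473 tested) and the members were chosen with earlier results of these data known. Named by rule were the genes the study names, every gene at least 2-fold from both lines, those at least 2-fold from 1 line, the 10 genes in each direction with the largest smaller difference, and at most 3 genes per list, chosen by size. Other named genes were chosen after their values were seen, as members of these lists, to complete a count or for comparison. Alternatives changed the background correction, the normalization, the probe for a gene, the filter, the values and the threshold.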

Additional observations from a re-analysis of the deposited data

How the results depend on the processing

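Without background correction, the counts at 1.5-fold were 17 higher and 45 lower against line 7, 9 and 29 against line 7.2, and 6 higher in both. At 2-fold 4 were lower than line 7 and 3 lower than both. With an offset of 16 the counts at 1.5-fold were 285 higher and 333 lower against line 7, 212 and 232 against line 7.2, and 85 and 88 in both. At 2-fold they were 29 and 50, 21 and 32, and 6 and 15. Median scaling gave 132 higher and 39 lower at 1.5-fold and 4 and 3 at 2-fold against line 7, and 1 lower in both at 2-fold. Requiring signal above background on all 3 arrays left 23 higher genes against line 7, 12 against line 7.2 and 6 in both at 1.5-fold, and 0 against line 7.2 at 2-fold. With the authors' values plus 50, the counts at 1.5-fold were 141 and 191 against line 7, 94 and 108 against line 7.2, and 33 higher in both, and at 2-fold 7 and 15, 5 and 11, and 3 and 9. With a floor at the background limit under the authors' values, they were 654 higher and 745 lower, 604 and 604, and 313 and 227 at 1.5-fold, and 179 and 231, 173 and 174, and 63 and 47 at 2-fold. Against the mean of lines 7.2 and 7, 17 genes were higher and 44 lower at 1.5-fold and 2 higher at 2-fold. Leaving out line 7.2 or line 7 gave 23 to 39, 50 to 80, and 1 in each case. The cause of these shifts was not tested. All 30 lower and 11 higher genes kept their direction under each of these alternatives that tested them, and 24 and 6 were still past 1.5-fold without background correction, 25 and 9 with median scaling. The shares of lower genes were 28.5% against line 7 and 54.4% against line 7.2 with median scaling, and 49.2% and 49.5% with quantile normalization. The alternatives run on gene lists with floored values, with the 3 arrays alone or with signal on all 3 arrays, the splits by MEF level and by scaling, the counts at bounds and the marker sum without Dcn, were chosen after seeing the data. No paired analysis was possible because each line has 1 array and no test was made. Signals near background limit the dim genes, for which a fold depends on the offset.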
